A study of Mus musculus with 10 samples.

Results

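The nuclear genes for the subunits of the mitochondrial respiratory chain and ATP synthase were followed in mouse duodenal organoids. They were taken as every gene symbol, with its longest transcript, that begins with Ndufa, Ndufb, Ndufc, Ndufs or Ndufv plus a digit, is Sdha, Sdhb, Sdhc or Sdhd, or begins with Uqcr, Cox4 to Cox8 or Atp5. This gave 84 of 24016 gene symbols, 37 for complex I, 4 for complex II, 8 for complex III, 18 for complex IV and 17 for complex V. The names also take in relatives that are not structural subunits of the complex they are filed under. Ndufa4 is now assigned to complex IV, Ndufa4l2 is its paralog, Cox7a2l is a factor of supercomplex assembly, and RefSeq now lists Atp5s and Atp5sl as Dmac2l and Dmac2, names of assembly components. All of them stay in the counts and medians of the complex that the rule gives. The rule does not match the subunit genes Cyc1 of complex III and Ndufab1 of complex I, which are listed below among carriers and partners.

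The readout was GRO-seq (global run-on sequencing), in which polymerases already engaged on genes extend their RNA in isolated nuclei and the labelled RNA is sequenced, so that transcription rather than mRNA level is read. Organoids were kept either in ENRI, the enterocyte differentiation medium with EGF, Noggin, R-spondin and the Wnt secretion inhibitor IWP-2, or in WENRC, the stem cell medium, which replaced IWP-2 with Wnt3A and the Wnt pathway activator CHIR-99021. EGF, Noggin and R-spondin were common to both media, as was growth in Matrigel, and no genotype, strain or age is given in the labels. There were 2 GRO-seq libraries per medium, from mice numbered 1 and 2, and 1 H3K27me3 ChIP-seq library per medium. Each GRO-seq column could be tied to a medium and to a batch, which is the number that the authors' header gives it, but not to a mouse. P-values here measure the spread between 2 libraries per medium.

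Oxidative phosphorylation couples electron flow from NADH (complex I) and succinate (complex II) through ubiquinol-cytochrome c reductase (complex III) and cytochrome c oxidase (complex IV) to proton pumping, and ATP synthase (complex V) uses the resulting gradient. Complexes I, III, IV and V combine nuclear subunits with subunits encoded by mitochondrial DNA, whereas complex II is wholly nuclear. Enterocytes use this pathway to drive nutrient absorption, and several subunits exist as paralogs used in different tissues.

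The reads recovered over all transcripts were 29128102 and 15787828 in the ENRI libraries of batches 1 and 2, against 25839485 and 9245915 in the WENRC libraries. Levels are given as RPKM, scaled reads per kb of gene body, corrected for the library total. Summed RPKM of 10 enterocyte markers was 568 and 812 in ENRI, against 47.8 and 22.5 in WENRC, and that of 6 stem cell markers was 5.57 and 3.29 in ENRI, against 24.5 and 30.5 in WENRC. The sum over 5 proliferation genes was 8.04 and 5.78 in ENRI and 21.5 and 19.97 in WENRC. The sum over 4 goblet cell markers was 43.3 and 26.9 in ENRI, against 6.31 and 3.21 in WENRC. That over 3 immune markers was 5.25 and 5.51 in ENRI, against 13.1 and 16.5 in WENRC. Of the 3 immune markers 1 reached a mean of 0.5 RPKM, and 1 had the higher mean in ENRI. The enterocyte, stem cell and proliferation lists were each separated between the media in the direction of the labels, and no marker of any fixed list was at 0 reads in all libraries. The part of these cell types and of proliferation in the differences below was not tested. Fewer cells of a type and less RNA per cell cannot be told apart in these bulk samples.

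No subunit gene passed the main test between the media, and most differed by little in that test. Their summed RPKM was 240 and 266 in ENRI, against 291 and 242 in WENRC, so the media overlapped. They took 0.269% and 0.288% of the reads over genes in ENRI, and 0.319% and 0.267% in WENRC. Of the 84 genes, 80 reached 0.5 RPKM in at least 2 libraries and were tested with limma on log2(RPKM + 0.5) together with all other such genes. The log2 difference, ENRI minus WENRC, had a median of -0.04 over the 80 members and of -0.21 over all 11602 genes tested. The sign of the members' median turned with the scaling, at 0.05 after quantile normalization and 0.10 after median centring, where the median of all genes was -0.04 and -0.06. The log2 difference was above 0 in 36 members and below 0 in 44, where 34.3% of all genes were above 0. Of the 80 members 67 (83.8%) lay within 0.5 of 0, against 58.7% of all genes. By limma with a Benjamini-Hochberg adjusted p under 0.05, 0 members were called higher in ENRI, where 0.0603% of all genes were, and 0 were called lower, where 0.0862% were. At an unadjusted p under 0.05 there were 2 members higher and 10 lower in ENRI, 15.0% of the members together, against 39.0% of all genes.

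Other tests called up to 3 members. The edgeR quasi-likelihood test on recovered reads called 0 members higher in ENRI and 2 lower, beside 5.6% of all genes higher and 2.84% lower, and with the replicate block the same counts stood beside 5.32% and 2.72%. DESeq2 called 1 member higher and 2 lower, beside 14.7% and 8.89% of all genes. In the authors' deposited table, 0 members were higher and 2 lower at an FDR under 0.05, beside 8.16% and 4.57% of the tested genes. The 2 genes called lower in each of these 4 lists were Ndufa4l2 and Ndufb10, and the gene that DESeq2 called higher was Uqcrh. Leaving out a single library changed the count. Without the batch 1 ENRI library limma called 6 members higher and 12 lower in ENRI, beside 15.6% and 34.3% of all genes, and without the batch 2 ENRI library 0 higher and 2 lower, beside 2.58% and 3.33%. Ndufa4l2 and Cox6b2 were called in both of these fits, and Ndufb10, Uqcrh, Ndufa4, Ndufa6, Atp5e, Atp5g1, Atp5g2 and Atp5o were named members called in the first alone.

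The groups of libraries did not overlap for 41 members, since both ENRI libraries were above both WENRC libraries for 14 of the 80, where 23.0% of all genes were, and below both for 27, where 49.7% of all genes were. The batches gave unlike values. The median log2 difference of the 80 members was -0.21 in batch 1 and 0.12 in batch 2, whereas over all genes tested it was -0.16 and -0.24. There were 15 members above 0 in both batches and 32 below 0 in both, beside 2960 and 6263 of the 11602 genes tested. A further 32 were below 0 in batch 1 and above 0 in batch 2, and 1 went the other way. Over all genes tested these counts were 1193 and 1129. The WENRC library of batch 2 was the shallowest of the 4, with 17 to 927 reads per tested member and a median of 142, and its part in this difference was not tested.

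**Figure D1:**
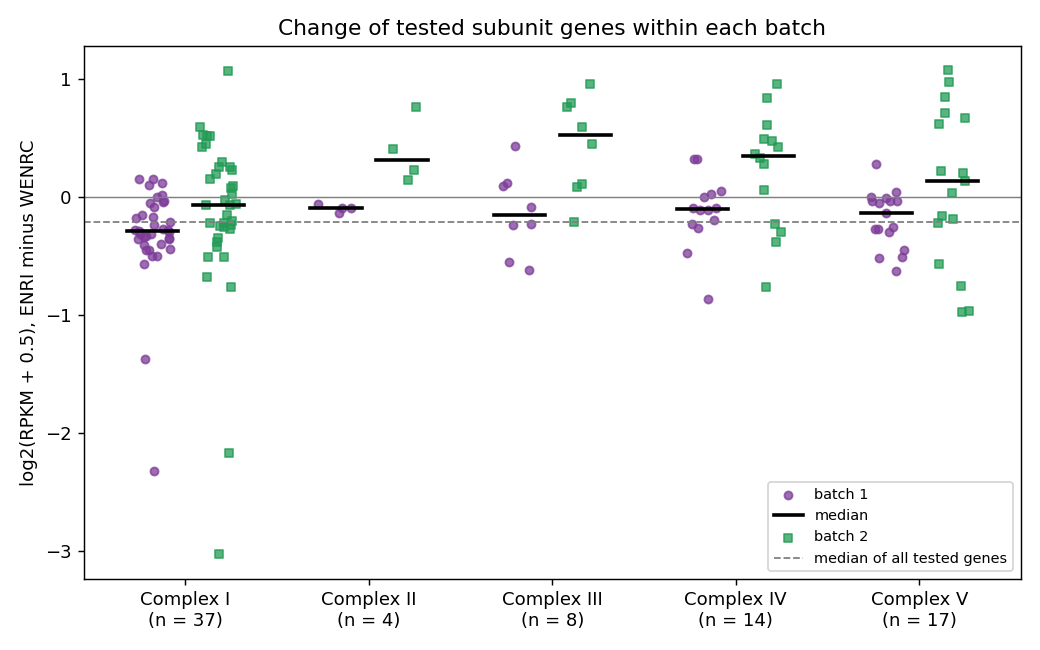
Difference in log2(RPKM + 0.5), ENRI minus WENRC, for each of the 80 tested members, by complex and within batch 1 (circles) and batch 2 (squares). Bars are medians, the solid line is 0 and the dashed line is the median of all tested genes, -0.21. For each complex the batch 2 median lies above the batch 1 median.

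The median differed in size from complex to complex. Relative to all tested genes, whose median was -0.21, the median log2 difference stood 0.04 higher for the 37 genes of complex I, 0.31 higher for the 4 genes of complex II, 0.39 higher for the 8 genes of complex III, 0.27 higher for the 14 tested genes of complex IV and 0.17 higher for the 17 genes of complex V. Complex I had 10 genes above 0 and 27 below, whereas complexes III and IV had 5 of 8 and 9 of 14 above 0. Over all 11602 genes tested, 3983 were above 0 (34.3%) and 7619 below. Over 17 other ways of processing, the median relative to all genes stayed above 0 in all 17 for complexes II, III, IV and V. It did so in 13 for complex I, and the lowest value for complex V was 0.0019. The difference between complexes was not tested. These settings did not take the batches apart. Within batch 1 the median log2 difference was -0.29, -0.10, -0.15, -0.10 and -0.14 in complexes I to V, beside -0.16 over all genes. Within batch 2 these values were -0.07, 0.32, 0.52, 0.35 and 0.13, beside -0.24. The sign of the median log2 difference itself turned with a single library. It was -0.05 in complex III without the batch 2 ENRI library, where it was 0.19 with all libraries, and -0.11 in complex IV without the batch 2 WENRC library, where it was 0.06 with all. In complex V it was -0.04 with all libraries and 0.12, 0.04 and 0.01 without WENRC batch 1, ENRI batch 1 and ENRI batch 2. Over all 80 members it was 0.04 without WENRC batch 1 and 0.05 without ENRI batch 1. The share of complex I in the summed RPKM of all 84 members was 30.2% and 30.7% in ENRI, against 36.3% and 41.8% in WENRC. That of complex III was 13.1% and 15.9% in ENRI, against 11.99% and 10.9% in WENRC. Without Ndufb10 and Ndufa4l2, described next, the complex I share was 27.3% and 29.1% in ENRI, against 29.2% and 32.2% in WENRC.

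Ndufa4l2, a paralog of Ndufa4 known as a target of hypoxia-inducible factors, had the largest difference of all members. Its level was 0.852 and 0.458 RPKM in ENRI (55 and 16 reads), against 6.27 and 7.32 RPKM in WENRC (359 and 150 reads). Both ENRI libraries were far below both WENRC libraries, with means of 0.655 ± 0.279 and 6.80 ± 0.744 RPKM (SD, n = 2 each). The log2 difference was -2.68 ± 0.23 (SE), with a limma adjusted p of 0.0522, just short of the threshold. It was -2.32 in batch 1 and -3.03 in batch 2. The edgeR quasi-likelihood test gave an adjusted p of 0.0424, DESeq2 one of 6.69e-10, and the authors' deposited table a log2 fold change of -3.15 at an FDR of 7.53e-07. Ndufa4l2 (NM_001098789) lies on chr10:126951995-126954210 of mm9, plus strand, and its 3' end overlaps the 3' end of Shmt2, the mitochondrial serine hydroxymethyltransferase on the minus strand, by 31 bp. Shmt2 also had lower values, at 0.890 and 0.679 RPKM in ENRI against 5.03 and 4.23 RPKM in WENRC, with a log2 difference of -2.00 ± 0.17 and a limma adjusted p of 0.0522. The strand setting of the counting is not given in the sources used here, and the part of Shmt2 reads in the Ndufa4l2 value was not tested. Shmt2 was singled out after its values were seen.

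Ndufb10, an accessory subunit in the membrane arm of complex I, was the most transcribed member per kb in WENRC. It had 8.67 and 5.57 RPKM in ENRI, against 23.3 and 26.8 RPKM in WENRC, with no overlap. The log2 difference was -1.77 ± 0.31, and -1.37 and -2.17 within batches 1 and 2, with a limma adjusted p of 0.0560 and an edgeR quasi-likelihood adjusted p of 0.0424. The authors' deposited table gave a log2 fold change of -1.60 at an FDR of 0.0043. Ndufb10 (NM_026684) lies on chr17:24859012-24861333 of mm9, minus strand. The ribosomal protein gene Rps2 runs toward it on the plus strand and ends 140 bp away. Rps2 had 25.3 and 88.5 RPKM in ENRI, against 56.7 and 78.9 RPKM in WENRC, so that its media overlapped (log2 difference -0.49 ± 0.70). Snhg9, a small nucleolar RNA host gene beyond Rps2 on the strand of Ndufb10, had 65.3 and 17.95 RPKM in ENRI, against 102 and 75.01 RPKM in WENRC (log2 difference -1.34 ± 0.72, limma adjusted p = 0.230). Snora78, within it, had a log2 difference of -1.19 ± 0.74. Both were lower in ENRI in each batch, and their part in the Ndufb10 value was not tested.

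Among the other genes filed under complex I by the rule, Ndufa4 had 1.46 and 0.734 RPKM in ENRI, against 2.18 and 1.59 RPKM in WENRC. Its log2 difference was -0.60 ± 0.28 (limma adjusted p = 0.185). Ndufa6, an accessory subunit of the LYR protein family, was the member of the complex with the largest difference upward. It had 8.67 and 14.2 RPKM in ENRI, against 7.95 and 6.54 RPKM in WENRC. The log2 difference of Ndufa6 was 0.59 ± 0.32 (limma adjusted p = 0.236), of which batch 1 showed 0.12 and batch 2 showed 1.06. Among genes of the catalytic core, Ndufs1, which carries iron-sulfur clusters of the electron path, had 1.36 and 1.25 RPKM in ENRI and 1.69 and 1.45 RPKM in WENRC. Ndufv1, the NADH-binding subunit, had 2.00 and 1.12 RPKM in ENRI and 2.00 and 1.56 RPKM in WENRC. For Ndufv1 the media overlapped, and for Ndufs1 both ENRI libraries were below both WENRC libraries by a small margin, with a log2 difference of -0.20 ± 0.13. That of Ndufs1 was -0.02 by edgeR and 0.01 by DESeq2, and that of Ndufv1 was -0.18 by limma and 0.04 by edgeR. These 2 core genes were chosen by role after their values were seen. Over the complex, both ENRI libraries lay above both WENRC libraries for 3 of 37 genes and below for 17, beside 23.0% and 49.7% of all genes.

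The 4 genes of complex II, which oxidises succinate within the citrate cycle, all had overlapping media. Sdha, the flavoprotein, had 2.40 and 2.60 RPKM in ENRI, against 2.68 and 2.15 RPKM in WENRC. Sdhb, the iron-sulfur subunit, had 2.55 and 3.69 RPKM in ENRI, against 2.68 and 1.97 RPKM in WENRC. The membrane anchors were at similar levels, with Sdhc at 1.33 and 1.60 RPKM in ENRI and 1.46 and 1.40 RPKM in WENRC. Sdhd had 2.77 and 3.22 RPKM in ENRI and 2.99 and 2.31 RPKM in WENRC. All 4 were below 0 in batch 1 and above 0 in batch 2, and the fitted log2 differences ran from 0.03 for Sdhc to 0.35 ± 0.24 for Sdhb (limma adjusted p = 0.327).

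In complex III, Uqcrh, the hinge protein that binds cytochrome c1, had the largest difference upward of all 80 members. It had 4.71 and 6.06 RPKM in ENRI, against 3.36 and 3.27 RPKM in WENRC, so both ENRI libraries were higher. The log2 difference was 0.62 ± 0.20, 0.44 in batch 1 and 0.80 in batch 2, with a limma adjusted p of 0.101, an edgeR one of 0.059 and a DESeq2 one of 0.0121. Uqcrc1, a core protein, had 3.66 and 4.83 RPKM in ENRI, against 3.41 and 2.64 RPKM in WENRC (log2 difference 0.43 ± 0.22, limma adjusted p = 0.223). Uqcrq, a small subunit and the most transcribed of the complex per kb, had 10.7 and 17.1 RPKM in ENRI, against 12.7 and 8.56 RPKM in WENRC, with overlap. Uqcr11 was the 1 gene of the complex with both ENRI libraries below both WENRC libraries, at 1.54 and 1.69 RPKM in ENRI, against 2.49 and 2.04 RPKM in WENRC (log2 difference -0.38 ± 0.15, limma adjusted p = 0.144).

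**Figure D2:**
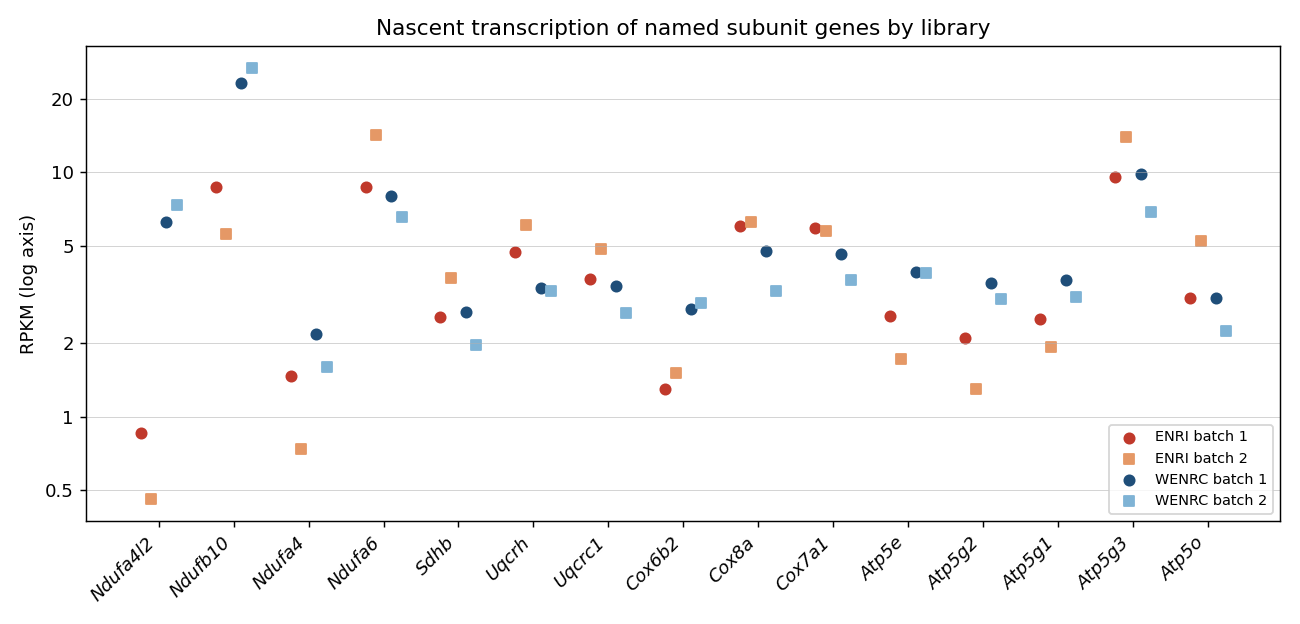
RPKM on a log axis of 15 named members in each of the 4 libraries, ENRI in red and orange and WENRC in blue shades, with circles for batch 1 and squares for batch 2. Ndufa4l2 (0.458 and 0.852 RPKM in ENRI, 6.27 and 7.32 in WENRC) and Ndufb10 (5.57 and 8.67, against 23.3 and 26.8) stand apart by the size of the difference. Ndufa4, Cox6b2, Atp5e, Atp5g1 and Atp5g2 also have both ENRI values below both WENRC values, by less. Ndufa6, Uqcrh, Uqcrc1, Cox8a, Cox7a1 and Atp5o have both above, and Sdhb and Atp5g3 overlap.

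Complex IV, cytochrome c oxidase, holds most of the tissue-restricted paralogs. Cox6b2, described as the testis form of Cox6b1, had 1.29 and 1.51 RPKM in ENRI, against 2.76 and 2.91 RPKM in WENRC. The media were well separated, with a log2 difference of -0.81 ± 0.14 and a limma adjusted p of 0.0560, but on 31 to 93 reads per library, and edgeR and DESeq2 gave adjusted p-values of 0.174 and 0.329. Cox6b1 had 2.64 and 2.43 RPKM in ENRI and 2.84 and 2.31 RPKM in WENRC, with overlap. Per kb, Cox6b1 thus made up 67.1% and 61.7% of the summed RPKM of the pair in ENRI, against 50.7% and 44.3% in WENRC. The gene bodies differ in length, at 1302 bp for Cox6b2 and 9177 bp for Cox6b1. In reads Cox6b1 was far the higher in every library, with 705 and 352 in ENRI and 673 and 196 in WENRC. Cox6b2 had 49 and 31 reads in ENRI and 93 and 35 in WENRC.

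Cox8a, the broadly expressed form of subunit 8, had 6.03 and 6.24 RPKM in ENRI, against 4.74 and 3.26 RPKM in WENRC (log2 difference 0.58 ± 0.24, limma adjusted p = 0.149). Cox8b, the form known from heart and skeletal muscle, had 1.94 and 2.23 RPKM in ENRI, against 2.88 and 1.44 RPKM in WENRC, with overlap. Cox7a1, also known as the muscle form of its subunit, had 5.91 and 5.76 RPKM in ENRI, against 4.62 and 3.61 RPKM in WENRC (log2 difference 0.47 ± 0.20, limma adjusted p = 0.165). It had higher RPKM than Cox7a2, the broadly expressed form, which had 2.58 and 3.63 RPKM in ENRI, against 2.58 and 2.46 RPKM in WENRC. The gene bodies differ in length, at 1859 bp for Cox7a1 and 4612 bp for Cox7a2. In reads Cox7a2 was the higher, with 347 and 264 in ENRI and 307 and 105 in WENRC. Cox7a1 had 320 and 169 reads in ENRI and 222 and 62 in WENRC. The summed RPKM of 3 muscle markers, Myh6, Actc1 and Ckm, was 0.0717 and 0.133 in ENRI, against 0.0886 and 0.118 in WENRC. The part of muscle cells in the Cox7a1 and Cox8b values was not tested. Cox7a2l had 1.74 and 1.63 RPKM in ENRI, against 2.14 and 2.12 RPKM in WENRC.

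Cox7b had 4.34 and 4.68 RPKM in ENRI, against 4.17 and 2.16 RPKM in WENRC (log2 difference 0.51 ± 0.32, limma adjusted p = 0.291). Its value in WENRC batch 2 was below the others. Cox7c, the most transcribed gene of the complex per kb, had 9.15 and 9.45 RPKM in ENRI, against 9.79 and 7.69 RPKM in WENRC. Cox4i1 had 5.22 and 5.29 RPKM in ENRI, against 6.35 and 4.10 RPKM in WENRC, and Cox6a1 had 4.71 and 4.87 RPKM in ENRI, against 5.12 and 3.67 RPKM in WENRC, both with overlap.

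The 4 members that missed the filter were all paralogs of complex IV genes. Cox4i2, the lung form of Cox4i1, had 0.654 and 0.326 RPKM in ENRI, against 0.299 and 0.319 RPKM in WENRC, and 6305 bp of its gene body overlap Bcl2l1 on the other strand. Cox7b2, a testis form, had 8 and 60 reads in ENRI and 3 and 22 in WENRC over 105382 bp, at most 0.0361 RPKM. Cox6a2 (the muscle form) and Cox8c (a testis form) had 0 reads in every library. A count of 0 allows up to 0.111 and 0.204 RPKM of Cox6a2 in ENRI, and 0.125 and 0.349 RPKM in WENRC, from 3 reads per library and for counting error only.

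**Figure D3:**
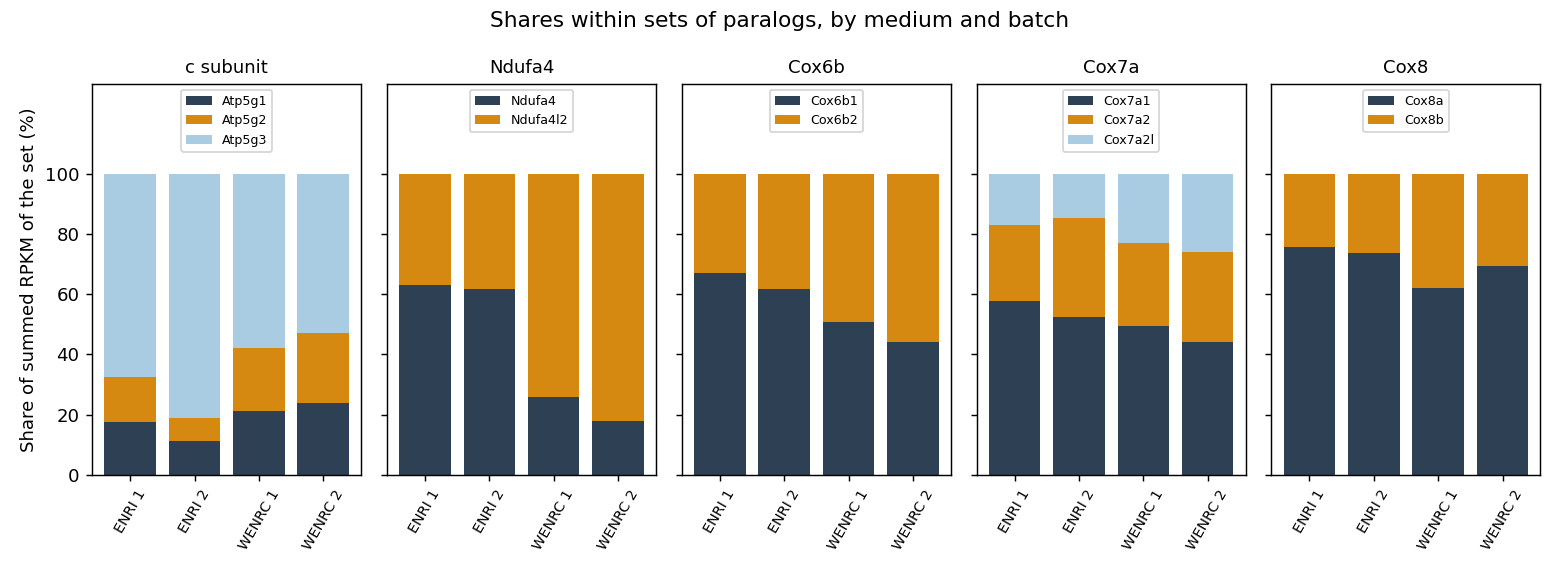
Share of each paralog in the summed RPKM of its set (percent), by medium and batch. Shares are per kb, and gene bodies differ in length, as with 7073 bp for Ndufa4 and 2215 bp for Ndufa4l2. Ndufa4 had 301 and 82 reads in ENRI and 398 and 104 in WENRC. Ndufa4l2 had 55 and 16 reads in ENRI and 359 and 150 in WENRC. Ndufa4 makes up 63.2% and 61.6% of its pair in ENRI and 25.8% and 17.8% in WENRC, and Atp5g3 makes up 67.5% and 81.2% of the c subunit set in ENRI and 58.0% and 52.8% in WENRC.

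In complex V, 3 genes encode the same mature c subunit of the ATP synthase rotor. Their fitted log2 differences had unlike signs, but all 3 were below 0 in batch 1. Atp5g1 had 2.51 and 1.92 RPKM in ENRI, against 3.61 and 3.09 RPKM in WENRC, and Atp5g2 had 2.10 and 1.29 RPKM in ENRI, against 3.51 and 3.01 RPKM in WENRC. Both had no overlap, with log2 differences of -0.51 ± 0.19 and -0.80 ± 0.23 and limma adjusted p-values of 0.127 and 0.0890. Atp5g3 had 9.56 and 13.9 RPKM in ENRI, against 9.82 and 6.85 RPKM in WENRC, with overlap. Its log2 difference was 0.47 ± 0.32 (limma adjusted p = 0.325), at -0.04 in batch 1 and 0.97 in batch 2. Atp5g3 made up 74.4% ± 9.7 of the summed RPKM of the set in ENRI and 55.4% ± 3.6 in WENRC (SD, n = 2 each), and an exact test of 2 against 2 libraries cannot give a two-sided p below 0.333.

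The promoters of these 3 genes are shown, with those of Uqcrh and Ndufb10. The c subunit genes share a product but not the sign of the fitted log2 difference. Uqcrh and Ndufb10 mark the ends of the range among members with a promoter sequence. The windows run from 250 bases before to 50 after the RefSeq start, on GRCm38.p6 and 5' to 3' on the gene's strand, and 69 of the 84 members had one. Capitals mark words of factors known for respiratory genes, searched on both strands: CGCANGCG of NRF1, CCGGAAG of ETS factors such as GABP, AAGATGGC of YY1, AAGGTCA of ERR and other nuclear receptors, and GGGCGG of SP factors. Atp5g2 holds an NRF1 and an SP word, Atp5g3 an NRF1 and an ERR word, Atp5g1 none of the 5, Uqcrh an ETS word and Ndufb10 2 NRF1 words. The windows lie on chr11:96075582-96075881 (Atp5g1), chr15:102670998-102671297 (Atp5g2), chr2:73911277-73911576 (Atp5g3), chr4:116075021-116075320 (Uqcrh) and chr17:24724374-24724673 (Ndufb10), all on the minus strand.
Atp5g1: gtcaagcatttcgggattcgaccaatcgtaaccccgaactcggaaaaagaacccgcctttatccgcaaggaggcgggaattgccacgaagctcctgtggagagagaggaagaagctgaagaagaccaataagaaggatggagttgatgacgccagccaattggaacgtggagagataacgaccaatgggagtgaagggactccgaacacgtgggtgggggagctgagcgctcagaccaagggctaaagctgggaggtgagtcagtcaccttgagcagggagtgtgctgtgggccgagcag
Atp5g2: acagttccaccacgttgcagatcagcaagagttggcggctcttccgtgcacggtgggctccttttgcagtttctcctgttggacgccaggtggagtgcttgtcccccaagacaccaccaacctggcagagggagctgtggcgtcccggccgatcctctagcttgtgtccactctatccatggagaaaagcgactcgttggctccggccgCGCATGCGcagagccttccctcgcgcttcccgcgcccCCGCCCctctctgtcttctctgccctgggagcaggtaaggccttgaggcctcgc
Atp5g3: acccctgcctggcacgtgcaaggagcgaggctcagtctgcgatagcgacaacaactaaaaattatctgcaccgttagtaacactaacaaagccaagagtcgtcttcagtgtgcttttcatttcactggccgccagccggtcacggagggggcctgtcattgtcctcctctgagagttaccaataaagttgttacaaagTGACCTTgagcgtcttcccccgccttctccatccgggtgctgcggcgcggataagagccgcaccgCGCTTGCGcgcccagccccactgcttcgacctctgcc
Uqcrh: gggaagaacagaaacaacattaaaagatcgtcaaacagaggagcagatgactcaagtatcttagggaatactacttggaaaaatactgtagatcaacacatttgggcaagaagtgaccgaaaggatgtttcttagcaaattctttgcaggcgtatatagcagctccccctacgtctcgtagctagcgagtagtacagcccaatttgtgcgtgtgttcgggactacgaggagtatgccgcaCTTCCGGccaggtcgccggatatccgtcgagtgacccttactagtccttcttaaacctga
Ndufb10: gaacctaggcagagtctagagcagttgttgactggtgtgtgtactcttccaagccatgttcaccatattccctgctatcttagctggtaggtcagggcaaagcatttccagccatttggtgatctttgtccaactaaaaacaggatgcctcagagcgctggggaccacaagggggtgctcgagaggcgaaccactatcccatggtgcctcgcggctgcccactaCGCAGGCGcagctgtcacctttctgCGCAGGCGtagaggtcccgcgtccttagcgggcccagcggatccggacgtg

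Over the 75 windows of the 69 matched members, the NRF1 word was in 40.0%, against 17.0% of the 11020 windows of tested genes and 8.21% of all 32851 windows. The ETS word was in 21.3%, against 18.5% and 8.86%. The YY1 word was in 16.0%, against 4.74% and 2.75%, and the ERR word in 10.7%, against 3.41% and 4.72%. The SP word was in 38.7%, against 62.2% of windows of tested genes and 35.7% of all. Median GC content was 57.3% in windows of members, 60.7% in those of tested genes and 52.7% in all. The NRF1 word was found in 12 of 34 windows of complex I and 12 of 20 of complex V, against 1 of 13 of complex IV. Some genes, such as Atp5c1 and Ndufa5, have windows that overlap, so the same match can count in both. By gene, the NRF1 word was in 26 of the 69 members (37.7%). These words are matches of letters and not measured sites.

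Other complex V genes ran both ways. Atp5e, the epsilon subunit of the central stalk, had 2.58 and 1.72 RPKM in ENRI, against 3.91 and 3.86 RPKM in WENRC (log2 difference -0.75 ± 0.22, limma adjusted p = 0.0868). Atp5o, the oligomycin sensitivity-conferring subunit of the peripheral stalk, had 3.05 and 5.25 RPKM in ENRI, against 3.04 and 2.23 RPKM in WENRC (log2 difference 0.54 ± 0.31, limma adjusted p = 0.252). Its libraries of batch 1 were nearly equal. Atp5b, the catalytic beta subunit and the most transcribed gene of the complex per kb, had 13.9 and 10.1 RPKM in ENRI, against 16.9 and 9.82 RPKM in WENRC. Both Atp5b values were higher in batch 1 than in batch 2, and the media overlapped (log2 difference -0.12 ± 0.37).

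The members are short genes, with a median gene body of 6827 bp against 14117.5 bp over all symbols, and 60 of the 84 are under 10 kb. Among tested genes under 5 kb the median log2 difference was 0.05 for the 28 members and -0.36 for all 2542 genes. Between 5 and 10 kb it was -0.02 for 30 members and -0.20 for all 1757 genes. From 10 to 20 kb it was -0.07 for 12 members and -0.20 for all 2383 genes. In each of these ranges the members' median stood above that of all genes, and the part of length in the differences between complexes was not tested. Of the 84 gene bodies, 13 overlap another gene, 11 of them on the other strand.

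**Figure D4:**
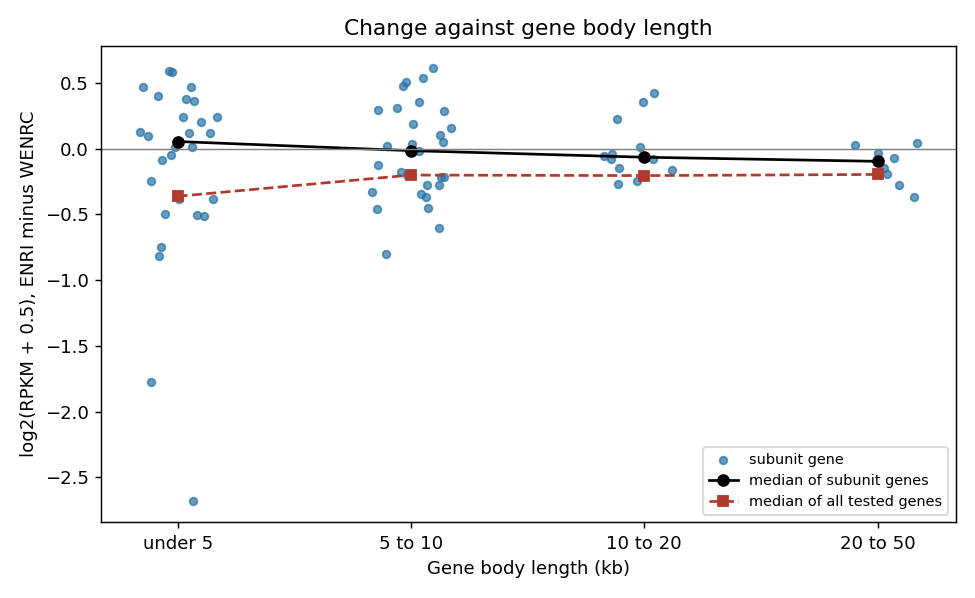
Difference in log2(RPKM + 0.5), ENRI minus WENRC, of the tested members up to 50 kb (points) by gene body length, with the median of members (circles) and of all tested genes (squares). Below 5 kb the medians are 0.05 and -0.36, and the 1 tested member above 50 kb, Ndufs4, is not drawn.

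H3K27me3, the repressive histone mark written by PRC2, was listed at few of these promoters. A broad region lay within 2 kb of the start of 2 of the 84 members in ENRI (2.38%, exact 95% interval 0.29% to 8.34%) and of 1 in WENRC (1.19%, 0.0301% to 6.46%). Over all 24016 genes the shares were 8.76% in ENRI and 10.5% in WENRC, and over tested genes 2.90% and 3.13%. The gene marked in both media was Ndufa4l2, which lay inside a region at chr10:126943952-126974010 in ENRI and chr10:126945990-126974245 in WENRC (mm9), with the authors' own fold over input of 4.16 and 5.62. Atp5g2 had a broad region in ENRI alone, at chr15:102502334-102503605 with a fold of 4.34, but the narrow peak lists held a peak there in both media. With 1 ChIP library per medium there is no replicate check.

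The 4 other lists of pathway genes had 0 genes called by limma in either direction, where 0.0603% and 0.0862% of all genes were called higher and lower. DESeq2, which called 14.7% and 8.89% of all genes, called 2 assembly factors higher and 1 lower, 2 carriers and partners higher and 1 lower, 0 regulators higher and 1 lower, and 4 genes of pyruvate dehydrogenase and the citrate cycle higher and 3 lower. The authors' deposited table, beside 8.16% and 4.57% of tested genes, had 1 assembly factor higher, 1 regulator lower, and 1 gene of the citrate cycle list in each direction. Of 45 assembly factors 40 were tested, with a median log2 difference of -0.41, 12 above 0 and 28 below. The members' median was -0.04, and all genes tested had a median of -0.21 with 34.3% above 0. Ndufaf3, a complex I assembly factor, had 3.53 and 4.03 RPKM in ENRI, against 7.34 and 8.71 RPKM in WENRC (log2 difference -0.99 ± 0.20, limma adjusted p = 0.0603). Surf1, an assembly factor of cytochrome c oxidase, had 6.81 and 8.80 RPKM in ENRI, against 12.5 and 15.4 RPKM in WENRC. Coa6, a copper-handling factor of the same complex, had 1.93 and 0.885 RPKM in ENRI, against 3.67 and 3.65 RPKM in WENRC. Cox16 went the other way, with 2.89 and 3.04 RPKM in ENRI, against 1.73 and 1.31 RPKM in WENRC, with adjusted p-values of 0.0620 by limma, 0.0448 by the edgeR quasi-likelihood test and 0.000641 by DESeq2.

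Among 10 tested carriers and partners the median log2 difference was 0.11, with 7 above 0. The list was drawn up with Cyc1 and Ndufab1, subunit genes that the name rule does not match. Cycs, which encodes cytochrome c, had 5.14 and 9.73 RPKM in ENRI, against 3.51 and 4.12 RPKM in WENRC (log2 difference 0.82 ± 0.35, limma adjusted p = 0.158). Dhodh, which feeds electrons from pyrimidine synthesis to ubiquinone, had 0.307 and 0.238 RPKM in ENRI, against 0.838 and 0.645 RPKM in WENRC. Gpd2, the mitochondrial glycerol phosphate dehydrogenase, had 2.35 and 2.84 RPKM in ENRI, against 1.57 and 1.40 RPKM in WENRC. For these 3 genes the media did not overlap.

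Among 14 tested regulators of mitochondrial gene expression the median was -0.16, with 4 above 0 and 10 below. Pprc1, a coactivator of the PGC-1 family, had 1.33 and 0.828 RPKM in ENRI, against 3.22 and 3.53 RPKM in WENRC (log2 difference -1.31 ± 0.20, adjusted p = 0.0560 by limma, 0.0459 by edgeR and 0.00037 by DESeq2). Tfam, which packages mitochondrial DNA and acts in its transcription, had 1.05 and 0.963 RPKM in ENRI, against 1.92 and 1.89 RPKM in WENRC (log2 difference -0.68 ± 0.12, limma adjusted p = 0.0560). Among 19 genes of pyruvate dehydrogenase and the citrate cycle the median was -0.04, with 9 above 0 and 10 below. Idh3b had 4.83 and 2.91 RPKM in ENRI, against 10.2 and 11.3 RPKM in WENRC, with adjusted p-values of 0.0613 by limma and 0.0032 by DESeq2. Mdh2 had 8.37 and 15.8 RPKM in ENRI, against 6.34 and 4.14 RPKM in WENRC, with adjusted p-values of 0.128 by limma and 0.00549 by DESeq2.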

How the data were processed

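The 84 members and the gene lists were chosen with earlier results of these data known. HOMER counts over RefSeq gene bodies (mm9) were compared by the authors in edgeR, with 2 batches, per the file headers, and per the submitters' processing notes reads were handled with FastQC, Bowtie and HOMER 4.3. The deposited signal, scaled reads per transcript, summed to 20.00M per library. Dividing by a library's step turned 100% of low values into whole reads (tolerance 0.1). The 4 deposited RPKM columns were not used, and the strand setting and coordinate base are not given in the sources used here. The deposited table also holds the authors' log2 fold changes, positive where ENRI was higher, with p-values and FDR. For H3K27me3 the authors ran HOMER on each library against input, per the file headers, and their deposited lists give a score and a fold (ratio) over input for each.

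RPKM was computed from the scaled reads, length and column total, with the longest transcript per symbol. Genes with at least 0.5 RPKM in 2 libraries were tested by limma 3.58.1 (R 4.3.3, mean trend) on log2(RPKM + 0.5) without a block, since deviations of libraries of the same batch correlated at only 0.0126. The Benjamini-Hochberg threshold was 0.05. edgeR 4.0.16 and DESeq2 1.42.0 were alternatives on recovered reads, and the fits were tested on simulated data. A log2 difference with the pseudocount understates the change of low genes. Intervals and floors cover counting error only. Promoter sequences are RefSeq's.

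Named were members past the test, the 4 largest differences and 2 highest levels per complex, complex II, paralog sets, members below the filter or with an H3K27me3 region, and up to 4 genes per other list.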

Additional observations from a re-analysis of the deposited data

How the results depend on the processing

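All genes called higher and lower in ENRI, 7 and 10 by limma, were 1 and 0 with a pseudocount of 0.1, 0 and 0 without a filter on low values, 19 and 23 with a filter at 1 RPKM, 507 and 422 after quantile normalization and 1707 and 1031 by DESeq2. Median centring gave 5 called lower. The edgeR quasi-likelihood test gave 650 and 329. The replicate block changed the counts to 0 and 0 in limma and to 617 and 315 in edgeR. With edgeR's own filter, an alternative added after seeing the data, counts were 0 and 0 without the block and 157 and 36 with the replicate block. Leaving out 1 library gave 0 to 1809 genes higher and 0 to 3985 lower, 0 to 6 members higher and 0 to 12 lower, and the cause was not tested.

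Members called higher, 0 by limma, were 1 by DESeq2. Members called lower, 0 by limma, were 1 with a filter at 1 RPKM or quantile normalization (Ndufa4l2, adjusted p = 0.0476 and 0.0392), 2 by DESeq2 and by edgeR with or without the replicate block, and 1 with edgeR's own filter and the block. The members' median of -0.04 turned positive, at 0.05 after quantile normalization, 0.10 after median centring, 0.18 by edgeR, 0.17 with the replicate block, 0.21 by DESeq2 and 0.19 with edgeR's own filter, with or without the block. The complex I median of -0.17 was 0.0176 by edgeR, 0.0154 with the replicate block, 0.0485 by DESeq2, and 0.0100 without and 0.0190 with the block under edgeR's own filter. The complex V median of -0.04 was 0.21 by edgeR, 0.20 with the replicate block, 0.25 by DESeq2 and 0.20 under edgeR's own filter with or without the block. The median of all genes ran from -0.28 to 0.03 over these settings. Relative to it, the members' median ran from 0.00 without a filter to 0.32 without the batch 1 ENRI library.

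Promoters with H3K27me3 were 4 in each medium with the narrow lists or 5 kb either side, against 2 in ENRI and 1 in WENRC. With the narrow lists that is 4.76% of members, beside 6.45% of tested genes in ENRI and 6.19% in WENRC. The marked genes differed in part between the media. With 5 kb either side they were Ndufa4l2 in both, Atp5g2, Ndufb7 and Ndufb8 in ENRI, and Cox6b1, Sdhb and Sdhc in WENRC. For 5 kb the share over all genes was not computed. Of 29 named tested members 20 kept their sign under all alternatives run. Values of the RPKM columns as deposited were not run. The lone library left in a medium was assumed to vary like the other pair. Depth limits Cox6a2, Cox8c and Cox7b2, and the 16 reads of Ndufa4l2 in ENRI batch 2.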
